A study of Mus musculus with 2 samples.

Results

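Of the 779 TCF7 peaks called in DP352 lymphoma cells, 10 were examined here because they belong to genes of RNA synthesis and protein synthesis: the RNA polymerase subunit genes Polr1a, Polr2a and Polr2l, the translation factor genes Eif3b, Eif4a1 and Eef1d, and the ribosomal protein genes Rpl22, Rpl19, Rpl34 and Rpl13a. Peaks of 9 of these 10 genes were picked from the nearest gene that the authors' table gives each peak, out of 754 genes in that table. The Polr1a peak is assigned there to its neighbor Ptcd3, and was taken because its summit is within 1000 bp of the Polr1a transcription start site (TSS). The strength of the peaks was known when the genes were picked, so their fold enrichments and numbers of fragments are described without a test.

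Sequenced were 1 library of TCF7-bound DNA and 1 of input DNA, both made from a T-ALL cell line of Lck-Akt2;Dlx5 transgenic genotype, in which the Lck promoter drives both transgenes in T cells and Akt2 is the myristoylated, constitutively active form (MyrAkt2). T-ALL is a leukemia of T-cell precursors, and the line, labelled double positive and named DP352 in the deposited tables, derives from the lymphoma of a single mouse. The cells were fixed in 1% formaldehyde, the DNA was sheared to 150 to 800 bp, and an antibody against TCF1, the protein encoded by Tcf7, pulled down the bound fragments. Input DNA was sheared in the same way but not immunoprecipitated. Both libraries share the genotype, neither has a replicate, and no error between cultures can be given. The tables hold no RNA level, so that the labelled cell type could not be checked against its markers. The study's methods give an approximate number of reads per sample, but the files hold no read total of either library. The ChIP depth behind each peak is the number of fragments that cover its summit. Fold enrichment and q-values also rest on the local input background, which was 5 to 12 fragments at the 10 summits.

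Growing lymphoid cells spend much of their energy on making ribosomes and protein. RNA polymerase I transcribes the large ribosomal RNA precursor, RNA polymerase II the messenger RNAs, and RNA polymerase III the transfer RNAs and the smallest ribosomal RNA, and several small subunits are shared among the 3 enzymes. Initiation factors load the ribosome on messenger RNA, elongation factors deliver the aminoacyl-tRNAs, and the promoters of ribosomal protein genes are among the most active of a dividing cell. Tcf7 encodes an HMG-box factor that binds a sequence of the CTTTG type and recruits β-catenin.

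Most of these peaks were strong and had their summit just upstream of a transcript start of their gene. Fold enrichment over input was 4.08 at the lowest, 19.2 at the median and 37.3 at the highest of the 10 peaks, beside 2.54, 8.93 and 61.8 over all 779 peaks. Fragments at the summit were 45 at the lowest, 426 at the median and 532 at the highest, beside a median of 113 over all peaks. Peaks of 9 of the 10 genes were above the median of all peaks in both measures, and the exception in both was the peak assigned to Rpl13a. The peaks were 206 to 869 bp wide with a median of 451 bp, against 276 bp over all peaks.

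**Figure D1:**
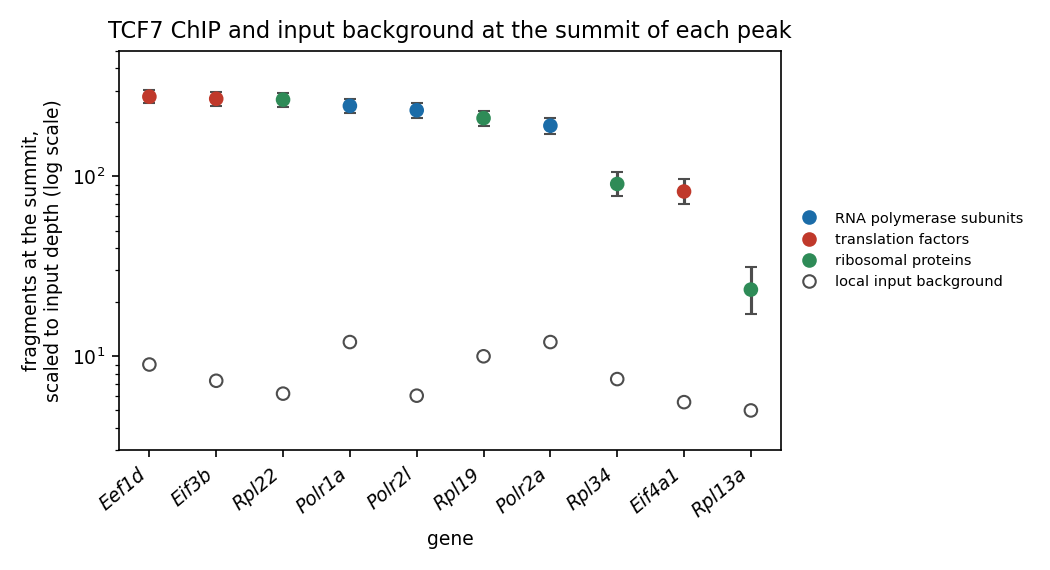
TCF7 ChIP fragments at the summit of the 10 peaks, scaled down to the depth of the input library (filled points, log axis), with exact 95% Poisson intervals, beside the local input background at the same summit (open circles). The 7 peaks on the left lie between 191.58 and 277.72 scaled fragments, Rpl34 and Eif4a1 at 90.83 and 82.48, and Rpl13a at 23.49, while the input background is between 5 and 12 throughout.

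By the number of fragments, the 10 peaks fell into 3 levels. Eef1d had 532 fragments at its summit (exact 95% Poisson interval 488 to 579, counting error only), Eif3b 518 (474 to 565) and Rpl22 512 (469 to 558). These 3 intervals overlapped one another. Polr1a followed with 473 fragments (431 to 518), Polr2l with 447 (407 to 490), Rpl19 with 404 (366 to 445) and Polr2a with 367 (330 to 407). In this order every gene overlapped its neighbors, whereas Eef1d and Polr2a, the ends of the 7, did not overlap. The next level, 174 fragments at Rpl34 (149 to 202) and 158 at Eif4a1 (134 to 185), was separated from the 7 by a gap between the intervals, as was Rpl13a with 45 (32.8 to 60.2) from those above it.

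The order changed when the peaks were ranked by fold enrichment. The local input background, recovered from the pileup and the fold enrichment of each peak, was 12 fragments at input depth at Polr1a and at Polr2a, 10.0 at Rpl19 and 9 at Eef1d. At Rpl22 it was 6.20, at Polr2l 6.04, at Eif3b 7.31, at Rpl34 7.47, at Eif4a1 5.56 and at Rpl13a 5, and the median over all peaks was 6. Rpl22 therefore led the 10 at 37.3-fold, rank 20 of 779, followed by Polr2l at 33.3-fold, rank 45, Eif3b at 32.6-fold, rank 52, and Eef1d at 27.9-fold, rank 94. Polr1a, rank 48 by fragments, was rank 182 by fold enrichment, and Polr2a moved from rank 136 to rank 242. Fold enrichment is the ratio of the pileup to this background, so the change of order follows from the background by arithmetic. The background was only 5 to 12 fragments at the 10 summits, and the Poisson intervals above cover the ChIP fragments alone. No interval was made for the background or the fold enrichment, so the order by fold is given without its counting error. The single input library was not replicated. Whether its background differed between the genes beyond counting error, and why, was not tested.

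**Figure D2:**
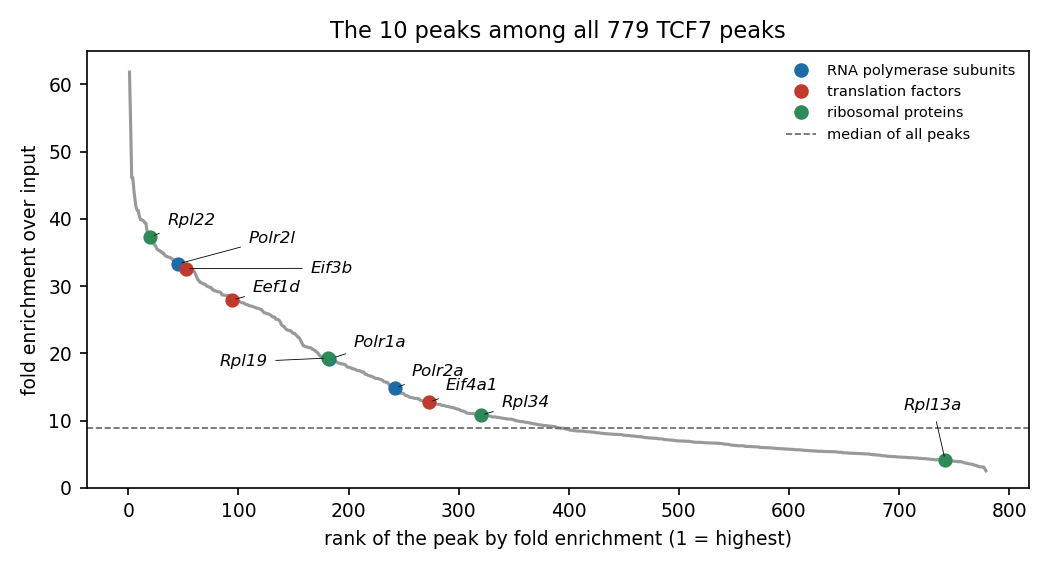
Fold enrichment over input of all 779 peaks in order of rank (gray line), with the 10 peaks marked by role. Rpl22, Polr2l, Eif3b and Eef1d are within rank 94, the points of Rpl19 and Polr1a coincide at ranks 181 and 182, and Rpl13a at rank 742 is the only one of the 10 below the median of all peaks (dashed line, 8.93).

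Among the polymerase genes, the peaks of Polr1a and Polr2l were at starts shared with a neighbor on the opposite strand, whereas the peak of Polr2a had no other coding gene starting within 1000 bp. Polr1a encodes the largest, catalytic subunit of RNA polymerase I. Its peak spanned 71908689 to 71909133 on chromosome 6, was 19.1-fold enriched with a -log10(q) of 219, and had its summit in intergenic sequence, 139 bp upstream of the start of the coding transcript and 131 bp upstream of the nearest transcript of any kind. The same summit was 172 bp upstream of the start of Ptcd3, which encodes a pentatricopeptide protein of the mitochondrial ribosome, and the starts of both genes were 311 bp apart. The peak covered both starts and cannot be divided between them. Polr2a encodes the largest, catalytic subunit of RNA polymerase II, the enzyme of messenger RNA synthesis. Its peak, from 69758675 to 69759056 on chromosome 11, was 14.8-fold enriched, with a -log10(q) of 150 and the summit 224 bp upstream of the TSS. The whole peak was upstream of the gene, ending 38 bp before it. Polr2l encodes a small subunit common to the 3 polymerases. Its peak, from 141475070 to 141475526 on chromosome 7, was 33.3-fold enriched with a -log10(q) of 269, and the summit was 155 bp upstream of the Polr2l TSS. On the opposite strand it was 47 bp inside Tspan4, a tetraspanin gene whose start was 108 bp from that of Polr2l, in a UTR of Tspan4.

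The sequences around the Polr1a and Polr2a summits are shown because none of the 9 motifs searched, TCF/LEF included, was found in either. Each is 201 bases of GRCm38 with the summit in the middle, and neither holds annotated UTR.

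Polr1a, chr6:71908822.0-71909022.0, plus strand: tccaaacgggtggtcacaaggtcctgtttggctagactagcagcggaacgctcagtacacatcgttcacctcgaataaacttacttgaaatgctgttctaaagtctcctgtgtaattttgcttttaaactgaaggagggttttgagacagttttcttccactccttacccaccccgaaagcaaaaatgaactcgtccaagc

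Polr2a, chr11:69758761.0-69758961.0, plus strand: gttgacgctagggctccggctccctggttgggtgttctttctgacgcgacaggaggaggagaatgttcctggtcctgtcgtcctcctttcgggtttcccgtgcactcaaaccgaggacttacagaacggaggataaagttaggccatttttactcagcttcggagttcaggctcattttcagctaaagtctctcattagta

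The Polr1a window has a GC content of 44.8% with 7 CpG, and the Polr2a window 51.2% with 10 CpG, beside medians of 54.7% and 6 CpG over all peaks. Polr2l differed from both, at 71.6% GC and 20 CpG, the highest GC content of the 10.

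The 3 translation factor genes had peaks at different places relative to their starts. Eif3b encodes a scaffold subunit of eIF3, the complex that holds the small ribosomal subunit during initiation. Its peak was the widest of the 10, 869 bp from 140418560 to 140419428 on chromosome 5, with 32.6-fold enrichment, a -log10(q) of 306 and the summit 436 bp upstream of the TSS, the farthest upstream of the 9 peaks within 1000 bp of their own gene's start. Eef1d encodes a subunit of the exchange factor that reloads the elongation factor eEF1A with GTP. Its peak, from 75909151 to 75909669 on chromosome 15, was 27.9-fold enriched with a -log10(q) of 293. The summit was 66 bp upstream of the nearest Eef1d TSS, inside an intron of the longer transcripts, and 314 bp upstream of Tigd5, a gene of transposon origin on the opposite strand. Eif4a1 encodes the RNA helicase of eIF4F that unwinds the leader of messenger RNAs. Its peak, from 69671348 to 69671723 on chromosome 11, was 12.7-fold enriched with a -log10(q) of 60.5, and was the only one of the 10 that lay wholly inside its gene. The summit fell in intronic sequence, 746 bp past the nearest start of a coding transcript and 121 bp upstream of the start of a transcript annotated as a retained intron.

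The Eif3b and Eif4a1 windows are shown with their motifs in capitals. In Eif3b the capitals mark the TCF/LEF motif CTTTGTA, which reads TACAAAG on the strand printed. In Eif4a1 they mark a pair of overlapping SP1/KLF motifs, GGGCGG on the opposite strand, and the NFY motif CCAAT.

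Eif3b, chr5:140418792.0-140418992.0, plus strand: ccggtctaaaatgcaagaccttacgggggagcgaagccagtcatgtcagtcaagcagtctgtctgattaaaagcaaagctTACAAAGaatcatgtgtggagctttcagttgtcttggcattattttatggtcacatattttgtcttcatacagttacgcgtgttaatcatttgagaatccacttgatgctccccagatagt

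Eif4a1, chr11:69671471.0-69671671.0, plus strand: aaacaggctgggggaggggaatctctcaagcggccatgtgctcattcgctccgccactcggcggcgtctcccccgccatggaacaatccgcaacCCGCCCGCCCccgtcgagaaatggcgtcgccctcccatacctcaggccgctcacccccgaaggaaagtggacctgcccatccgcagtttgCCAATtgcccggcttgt

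The TCF/LEF motif of Eif3b ended 14 bp from the summit, from 140418872 to 140418878. Of the SP1/KLF motifs of Eif4a1, one ended 1 bp from the summit and the other held the summit base itself. The composition of both windows was far apart, with 41.8% GC and 5 CpG in Eif3b, the lowest of the 10 in both, and 65.2% GC and 18 CpG in Eif4a1.

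**Figure D3:**
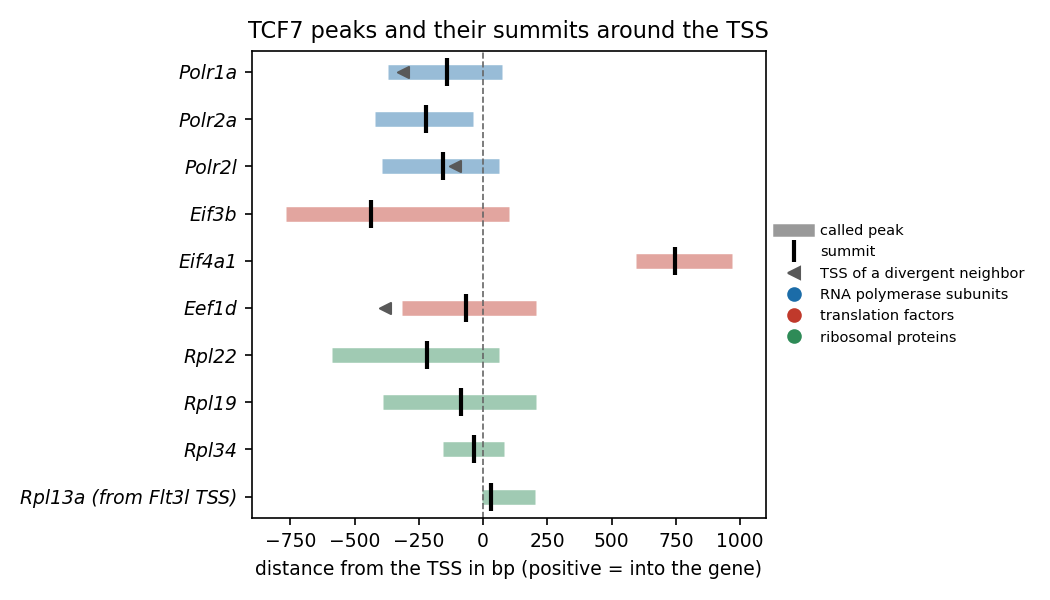
Position of the 10 peaks (colored bars) and their summits (black ticks) relative to the nearest TSS of a coding transcript of their gene, in bp, drawn with transcription to the right; the Rpl13a peak is drawn from the TSS of Flt3l, since Rpl13a itself starts 7642 bp away from the summit. Summits of 8 genes are upstream of that TSS within 436 bp, though those of Eef1d and Rpl19 lie in an intron of longer transcripts. That of Eif4a1 is 746 bp past the TSS, and arrowheads mark the divergent starts of Ptcd3, Tspan4 and Tigd5.

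Of the 4 ribosomal protein genes, Rpl22, Rpl19 and Rpl34 had a peak across their start, and the peak assigned to Rpl13a was at the start of another gene. Rpl22 encodes a protein of the large subunit that is needed in the development of T cells. Its peak, from 152325266 to 152325916 on chromosome 4, was 37.3-fold enriched with a -log10(q) of 320, and the summit was 219 bp upstream of the start of the main coding transcript and 108 bp upstream of a non-coding one. Rpl19, a large-subunit gene too, had a 19.3-fold peak from 98026536 to 98027129 on chromosome 11, with a -log10(q) of 189. Its summit was 86 bp upstream of one coding start and inside an intron of a longer transcript. The peak of Rpl34, from 130730315 to 130730553 on chromosome 3, was 10.8-fold enriched, with a -log10(q) of 59.2 and the summit 36 bp upstream of the nearest TSS, the closest to a start of its own gene among the 10. Rpl34 had fewer fragments than Rpl19, 174 against 404, and their intervals did not overlap.

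The Rpl22 and Rpl34 windows are shown as the strongest and the weakest of the 3 peaks at a ribosomal protein promoter. Capitals mark the TCF/LEF motif CTTTGTT in Rpl22. The Rpl34 sequence is clipped to 136 bases to leave out the UTR, and its SP1/KLF motif, 77 bp from the summit, lies in the part left out.

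Rpl22, chr4:152325534.0-152325734.0, plus strand: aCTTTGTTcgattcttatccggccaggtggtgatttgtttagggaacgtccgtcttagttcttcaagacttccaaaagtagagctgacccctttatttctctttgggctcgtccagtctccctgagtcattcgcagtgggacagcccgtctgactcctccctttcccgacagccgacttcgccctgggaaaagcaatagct

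Rpl34, chr3:130730399.0-130730534.0, plus strand: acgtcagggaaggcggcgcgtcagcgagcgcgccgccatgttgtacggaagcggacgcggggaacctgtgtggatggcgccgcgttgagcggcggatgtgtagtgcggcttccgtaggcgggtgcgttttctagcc

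The TCF/LEF motif of Rpl22 was at the edge of the window, 93 bp from the summit, from 152325535 to 152325541. The Rpl34 window held 26 CpG at a GC content of 65.7%, the most CpG of the 10. Rpl22 had 10 CpG at 51.2%, and Rpl19 had 8 at 42.3%.

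The peak assigned to Rpl13a, from 45136231 to 45136436 on chromosome 7, had its summit in a UTR of Flt3l, 29 bp downstream of the start of that gene, which encodes a cytokine for early blood cells. In the authors' table, Rpl13a runs from 45125559 to 45136231, so that the peak touches its start. In the GENCODE vM21 annotation, Rpl13a, whose protein belongs to the large subunit, runs from 45125558 to 45128761 on the minus strand, and the summit was 7642 bp upstream of it. The position 45136231 is there the start of Gm45713, a separate gene that overlaps both. The peak was also the weakest of the 10, with a fold enrichment of 4.08, rank 742, and a -log10(q) of 5.01, and 4.62% of all peaks had a lower fold enrichment. No peak of the list lay within 1000 bp of the start of Rpl13a by this annotation.

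By the annotation used here, 9 of the 10 summits were within 1000 bp of a TSS of their own gene, and all 10 were within 436 bp of a TSS of some protein-coding gene. Over the whole list, 61.0% of summits were within 1000 bp of a protein-coding TSS. Since the genes were picked with their peaks known, nothing is read from this difference. In the table of the authors, 8 of the 10 peaks overlapped the start of the gene assigned, as did 29.4% of all peaks. The Polr2a peak is given as upstream and the Eif4a1 peak as inside the gene.

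Motifs were searched in the 201 bases centered on each summit, reading either strand. The TCF/LEF motif, CTTTGNN with each N an A or a T, was in 2 of the 10 windows, Eif3b and Rpl22, beside 15.7% of all 779 windows, 9.89% of the 475 windows within 1000 bp of a TSS and 10.9% of promoter windows of the same length that end at a gene start. The SP1/KLF motif GGGCGG was in 5, Polr2l, Eif4a1, Rpl19, Rpl34 and Rpl13a, beside 24.1% of all peak windows and 37.6% of promoter windows. The ETS motif CCGGAA was in Eef1d alone, 89 bp from the summit, beside 9.63% of peak windows and 12.4% of promoter windows, and the NFY motif CCAAT in Eif4a1 alone, beside 18.1% and 31.7%. None of the 10 held the E-box CACGTG, which the Myc factor binds, beside 3.34% of peak windows and 5.72% of promoter windows. Nor did any hold AAGATGG of YY1 (5.13% and 3.30%), GCGCATG of NRF1 (1.28% and 3.82%), TGACGTCA of CRE (0.899% and 1.92%) or TATAAA (5.52% and 9.31%). With 10 windows, a share of the size of these backgrounds cannot be told from its absence, and the letters found are not shown to be bound.

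The counts of motifs depended on the width of the window, as did the background. With 50 bp on each side of the summit, SP1/KLF was left in Eif4a1 alone, beside 11.4% of all peaks, and TCF/LEF in Eif3b alone, beside 9.63%, and none of the 10 held ETS or NFY, beside 5.39% and 8.73%. In the whole called peaks, SP1/KLF was in 9 of the 10, all but Rpl22, beside 36.6% of all peaks, and ETS in 4, Polr2a, Eef1d, Rpl19 and Rpl34, beside 16.9%. The E-box was then in 3, Eef1d, Rpl19 and Rpl34, beside 7.57%, and TCF/LEF in the same 2 genes as before, beside 20.3%. The 10 peaks were wider than the list as a whole, so these shares are not of equal lengths. With 250 bp on each side of the summit, SP1/KLF was in 8 beside 48.5%, ETS in 4 beside 23.4%, the E-box in 3 beside 10.7% and TCF/LEF in 2 beside 28.8%. NFY was in Polr1a and Eif4a1 in both of the wider searches, beside 29.7% of whole peaks and 43.6% of the 250 bp windows. YY1 was likewise in 2, Polr1a and Eif3b, beside 8.73% and 11.8%, and NRF1 in Rpl19, beside 3.47% and 5.52%. TATAAA was in Eif3b alone in the whole peaks, beside 7.70%, and in Eif3b and Polr2a at 250 bp, beside 14.9%, and CRE was in none, beside 2.18% and 3.59%.

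The rest of these complexes and pathways was looked up in 12 lists with 274 genes in all. By the nearest gene of the table, 13 of the 274 had a peak (4.74%), where 2.64% of the 21924 protein-coding genes did. By a TSS within 1000 bp of a summit, 15 did (5.47%), where 2.52% of protein-coding genes did. The lists include the 10 genes, which were picked with their peaks known. They make up 9 of the 13 by nearest gene and 9 of the 15 by TSS. Nothing is therefore read from the difference to all protein-coding genes. The lists too were put together with earlier results of these data known, and no test was made of them. The median distance from a TSS to the nearest summit was 531 kb over the listed genes and 787 kb over all protein-coding genes.

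**Figure D4:**
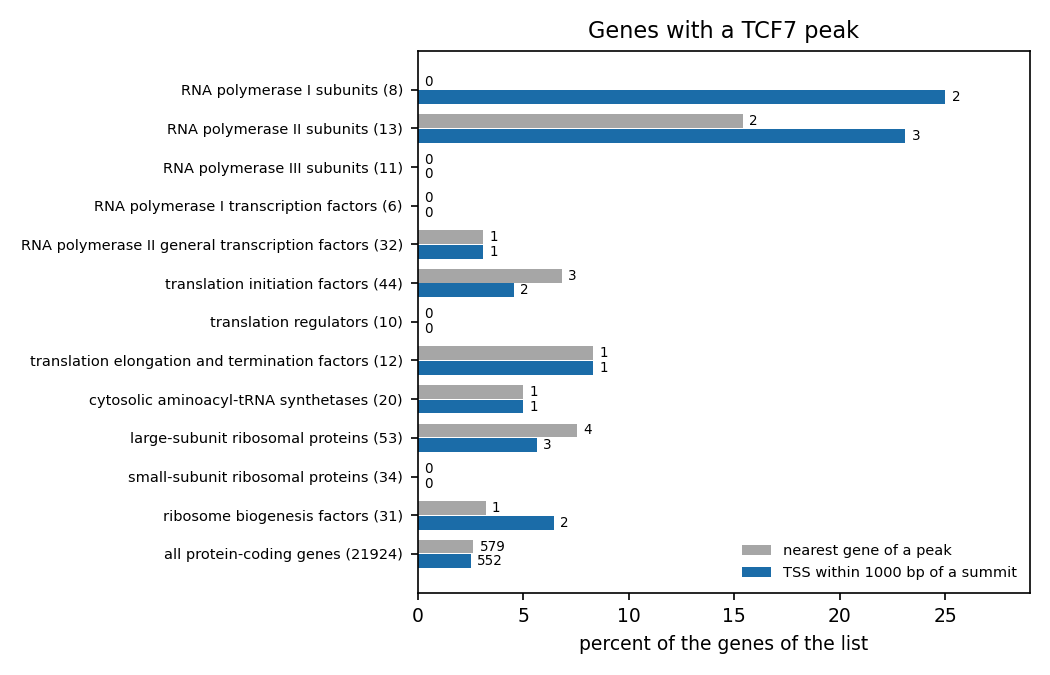
Percent of the genes of each list (number of genes in parentheses) that are the nearest gene of a peak (gray) or start within 1000 bp of a summit (blue), with the number of genes at the end of each bar. Subunits of RNA polymerases I and II stand at 25.0% and 23.1% by TSS and at 0 and 15.4% by nearest gene. Polr1a, Polr2a and Polr2l, picked with their peaks known, are among them. The small-subunit ribosomal proteins and RNA polymerase III subunits stand at 0 by both counts, and all protein-coding genes at 2.64% and 2.52%.

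Among polymerase subunits, 2 of 8 genes of RNA polymerase I (25.0%) and 3 of 13 of RNA polymerase II (23.1%) started within 1000 bp of a summit. None of 11 listed for RNA polymerase III did, where the shared subunits are counted with RNA polymerase II. Over all protein-coding genes the share was 2.52%, and Polr1a, Polr2a and Polr2l were picked with their peaks known. Beside Polr1a, the other gene of polymerase I was Cd3eap, which encodes a subunit of the enzyme's dissociable part. Its summit, 123 bp upstream of the TSS in a peak assigned to Ppp1r13l, had 468 fragments (427 to 512) and a 35.0-fold enrichment, rank 30, so that it led Polr1a, Polr2a and Polr2l by fold enrichment but stood between Polr1a and Polr2l by fragments. The input background was 6 at Cd3eap and 12 at Polr1a, and its counting error is not part of these fold enrichments. Polr2h, a further subunit shared by the 3 polymerases, had a weak peak 136 bp upstream of its TSS, assigned to Clcn2, with 95 fragments (76.9 to 116) and 3.89-fold enrichment, rank 754. The interval of Polr2h lay below those of Polr1a, Polr2a and Polr2l. None of 6 transcription factors of polymerase I had a peak by either count. In lists as small as this and that of polymerase III, a share of 2.52% cannot be told from 0. Of 32 general factors of polymerase II, 1 had a peak (3.12%), near the share of all protein-coding genes. This was Taf15, whose protein belongs to the TFIID complex and binds RNA. Its peak was 19.8-fold enriched with 530 fragments (486 to 577) and the summit 135 bp upstream of the TSS.

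In the translation lists, 1 to 3 genes had a peak by either count, except among the 10 regulators of translation, where none did. Of 44 initiation factors, Eif3b and Eif4a1 started within 1000 bp of a summit (4.55%), and 3 were the nearest gene of a peak (6.82%), beside 2.52% and 2.64% of protein-coding genes. Eif4e3, a cap-binding protein of the eIF4E family, was the third of these, with its peak 35.0 kb inside the gene, 52 fragments (38.8 to 68.2) and 5.84-fold enrichment. Eef1d was the only one of 12 elongation and termination factors with a peak (8.33% by either count), and Lars, the leucyl-tRNA synthetase, the only one of 20 cytosolic aminoacyl-tRNA synthetases (5%). The Lars peak had 273 fragments (242 to 307) and an 11-fold enrichment, with the summit 179 bp upstream of the TSS. Among 31 factors of ribosome biogenesis, 2 started within 1000 bp of a summit (6.45%) and 1 was the nearest gene of a peak (3.23%). Nop56, a protein of the box C/D small nucleolar particles, had a 16.7-fold peak with 286 fragments (254 to 321), 93 bp upstream of its TSS. Utp18, of the complex that processes the small-subunit RNA, had a 22.4-fold peak with 427 fragments (387 to 469), 193 bp upstream of its TSS and assigned to Mbtd1.

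Among 87 ribosomal protein genes, the TSS of 3 lay within 1000 bp of a summit (3.45%). They were 3 of 53 for the large subunit (5.66%) and 0 of 34 for the small one. With 34 genes, a share of 2.52% cannot be told from 0, and no difference between the subunits is read from this. With Rpl13a by the table, the count is 4 of 87 (4.60%). The share of 3.45% is near that of all protein-coding genes, 2.52%. Its genes, Rpl22, Rpl19 and Rpl34, were picked with their peaks known, so nothing is read from this share. The closest summits beyond 1000 bp were 4014 bp from Rpl7a, in a 5.48-fold peak assigned to Surf1, and 4173 bp from Rplp2, in a 9.28-fold peak assigned to Pnpla2. The list holds only regions past the threshold of the peak caller. TCF7 binding below it at the 83 genes with a peak by neither count was not measured here.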

How the data were processed

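The authors aligned the reads to mm10 (Bowtie2, per the submitters' processing notes) and ran MACS2 within Chipster to find TCF7 peaks relative to input. Neither versions nor settings are stated. The authors deposited each peak's summit pileup, which is coverage signal scaled down to the input depth. They also deposited the fold enrichment, a ratio to the local input background, and the -log10 of the p- and q-values. A nearest-gene table of the authors, read by content because its column names are out of step, gave the assigned genes. The authors' processing ran on 1 library each, so weak peaks rest on few fragments.

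Pileups were divided by their common step of 0.522 to give fragments (whole within 0.0096), with exact 95% Poisson intervals. The input background was (pileup + 1) / fold enrichment - 1. With it, a Poisson tail gave every deposited -log10 p within 0.0029. TSS, UTR and gene types came from GENCODE vM21 (21924 protein-coding symbols, any transcript unless stated), and sequences from the GRCm38.p6 reference of RefSeq. No tests were made. The members and lists were chosen with earlier results of these data known. The genes named are the 10 members, genes with a TSS within 1000 bp of their summits, and listed genes with a peak. Rpl7a and Rplp2, the neighbors of Eif4a1 on chromosome 11 and the pseudogenes were named after their values were seen. Alternatives were promoter distances of 500 and 5000 bp, whole peaks, a -log10 q or a fold enrichment of at least 10, other gene assignments, and windows of 50 and 250 bp. Tools were samtools 1.23.1, matplotlib 3.10.9, pysam 0.24.0, scipy 1.17.1 with numpy 2.4.6, and pandas 2.3.3 under Python 3.11.15, and the functions were tested on simulated data.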

Additional observations from a re-analysis of the deposited data

How the results depend on the processing

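Of 83 values under other settings, 61 stayed within the limits set for a change (1.5 times for a count) and 22 did not, 18 of them counts of motifs in windows of other widths. Counting genes by a TSS within 1000 bp of a summit in place of the nearest gene raised RNA polymerase I subunits from 0 to 2 and ribosome biogenesis factors from 1 to 2. Keeping only nearest genes at most 1000 bp away lowered the initiation factors from 3 to 1, since the table places Eif4a1 at 1075 bp and the Eif4e3 peak lies 35.0 kb inside its gene. The median rank of the 10 peaks was 182 by fold enrichment and 90.5 by fragments. The number of genes with a summit near their own TSS was 9, also at 500 and 5000 bp, with any base of the peak, at a -log10(q) or fold enrichment of at least 10, and, chosen after seeing the data, with the starts of coding transcripts only. No paired analysis was possible because each group had 1 library. Fragment numbers limit the weak peaks most: at Rpl13a the interval runs from 32.8 to 60.2.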

Other observations

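The peaks of Eif4a1 and Polr2a were neighbors on chromosome 11, with summits 87.3 kb apart. The Trp53 peak was 90.2 kb from that of Eif4a1 on the other side. Within 500 kb of the Eif4a1 summit the list held 6 other peaks, against a median of 1 other peak around all 779 summits and at most 7. These were a pair at Chd3 (5.20- and 4.64-fold), and peaks at Kdm6b (26.6-fold), Trp53 (28.7-fold), Polr2a (14.8-fold) and Fgf11 (6.92-fold). Around Polr2a there were 7 other peaks within 500 kb, around the peak assigned to Rpl13a on chromosome 7 there were 6, and around Eef1d there was none.

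Of the peaks assigned to a ribosomal protein pseudogene with -ps in its symbol, that of Rpl9-ps7 was 33.2 kb from it and that of Rpl36a-ps3 20.2 kb, at 6.57- and 8.45-fold enrichment. Pseudogenes under other symbols were not looked for.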
